A study of Canis lupus familiaris with 6 samples.

Results

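The kinesin, dynein and tubulin genes of the dog were followed in 3 canine mammary tumor cell lines grown with or without myeloid-derived suppressor cells (MDSCs). They were chosen by name alone, as the probes whose gene symbol on the array begins with KIF (kinesins), is 1 of KLC1 to KLC4 (kinesin light chains), begins with TUBA, TUBB or TUBG (tubulins), DYNC or DYNL (dynein chains), or is 1 of DCTN1 to DCTN6 (dynactin), STMN1 to STMN4 (stathmins) and MAPRE1 to MAPRE3 (end-binding proteins). This gave 73 genes of 35582 gene names, measured by 126 of 43603 probes (control probes left out) on each of 6 arrays. Of the 73 genes, 33 had more than 1 probe, with 6 for DYNC1H1 as the most, and each gene is described at its brightest probe unless another is named.

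RNA of P114, CMT-U27 and CMT-U309 cells co-cultured with MDSCs was hybridised against RNA of the same line in monoculture, on 2 arrays per line with the dyes exchanged. P114 is a line from an anaplastic mammary cancer, CMT-U27 from a simple carcinoma and CMT-U309 from a spindle cell mammary tumor. The MDSCs were sorted from blood of healthy dogs and sat in culture inserts, so that the tumor cells shared their medium but not their surface, and the labels give a co-culture of at least 72 h, while the study's methods state a shorter time. No treatment other than the co-culture separates the 2 conditions. Each line gave 1 RNA per condition, so the dye-swap arrays of a line repeat the same RNA and count as 1 replicate, and p-values measure the spread between these lines or RNA samples only.

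Microtubules are hollow polymers of alpha and beta tubulin that grow from gamma tubulin rings. Kinesins mostly walk along them towards the growing end, cytoplasmic dynein with its cofactor dynactin walks the other way, stathmins hold tubulin dimers apart from the polymer, and end-binding proteins ride on the growing tips. In tumor cells these genes are known for building the mitotic spindle, which is what vinca alkaloids and taxanes act on, and for carrying cargo during cell movement.

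The arrays set limits that touch every value below. A spot was taken as well above background where the scanner software flagged it so, and 94 of the 126 probes were well above background in all 12 channels (6 arrays with 2 dyes each), which covers 55 of the 73 genes. The probes of TUBAL3, TUBB1, KIF19 and KIF6 were well above background in no channel, and KIF19 also failed the intensity filter, which left 125 probes and 72 genes for testing. The dye-swap arrays of P114 went against each other, with a correlation of -0.39 between their co-culture over monoculture log2 ratios over all probes, against 0.26 in CMT-U27 and -0.09 in CMT-U309. Over the member genes, 40 of 72 had opposite signs on the 2 arrays of P114, 23 of 72 in CMT-U27 and 28 of 70 in CMT-U309. Co-culture results are therefore given with and without P114.

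The labels were checked against marker genes of other cell types. Mesenchymal markers such as VIM were far above CMT-U27 in P114 and CMT-U309 (8 of 8 markers tested higher in each at adjusted p under 0.05 by limma and over 2-fold). Of 6 epithelial markers, 5 were higher in CMT-U27 than in P114 and than in CMT-U309 by these thresholds, among them KRT19 and EPCAM. The other, KRT14, was lower in CMT-U27 than in CMT-U309 by these thresholds, with a difference of -1.53, and did not pass them against P114. Of 17 myeloid markers on the array, 3 were well above background in all 12 channels (ITGB2, CD68 and S100A8) and 3 in none (ITGAM, LYZ and SPI1), and none passed p under 0.05 with a fold over 2 in co-culture. The log2 of the summed signal of the myeloid list ran from 10.68 to 13.75 in co-culture and from 10.73 to 13.01 in monoculture. In CMT-U27 it was higher in co-culture on both arrays, at 13.74 against 12.95 and 13.75 against 13.01. S100A8 had log2 ratios of 0.89 and 0.82 there and S100A9 of 0.84 and 0.76, while both lay between -1.85 and 0.14 on the arrays of P114 and CMT-U309. MPO had a level of 9.61 in CMT-U309, above 3.11 in P114 and 3.92 in CMT-U27. The part of myeloid RNA in the co-culture ratios below was not tested.

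The probes are 60 bases long, and those of the genes on which the line differences and the probe comparisons rest are printed here, 5′ to 3′, in lower case. Their positions are those the array design gives on the dog genome build canFam2, and whether a probe lies in an exon or an untranslated region was not analysed here. Of the 126 member probes, 112 have at least 1 of 3 forward reading frames free of stop codons, the 14 printed here among them. The first set holds genes with large differences between lines.
KIF5C, chr19:53687680-53687739, plus strand: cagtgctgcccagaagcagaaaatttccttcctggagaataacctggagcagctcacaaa
KIF5C, second probe, chr19:53680523-53680804, plus strand: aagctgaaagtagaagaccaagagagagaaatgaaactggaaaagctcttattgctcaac
KLC3, chr1:113082232-113082291, minus strand: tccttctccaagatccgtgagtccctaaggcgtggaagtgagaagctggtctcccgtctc
MAPRE2, chr7:57859108-57859167, minus strand: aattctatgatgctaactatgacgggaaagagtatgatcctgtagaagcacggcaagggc
TUBB6, chr7:80789767-80789826, plus strand: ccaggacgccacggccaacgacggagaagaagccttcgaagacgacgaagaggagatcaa

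The second set holds probes of 1 gene that overlap. The KIF16B probes share a run of 27 bases, in capitals, so that their values are not independent of each other. Both are spread over more than 60 bases of the genome (788 and 14659 bases), as a probe across joined exons would be.
KIF16B, second probe, chr24:9468038-9468825, plus strand: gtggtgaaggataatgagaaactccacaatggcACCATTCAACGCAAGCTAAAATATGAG
KIF16B, dimmest probe, chr24:9468799-9483457, plus strand: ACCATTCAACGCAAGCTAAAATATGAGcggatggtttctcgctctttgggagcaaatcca

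The third set shows probes whose values parted. TUBA4A and TUBAL3 are alpha tubulins whose probes share a longest run of 9 bases, in capitals, and the first was far above background on every array while the second never was. For KIF3A and STMN4 the probes of the same gene differed in their co-culture ratio, and the DCTN1 probe shown is the one that was higher in co-culture on every array.
TUBA4A, chr37:28798766-28798825, minus strand: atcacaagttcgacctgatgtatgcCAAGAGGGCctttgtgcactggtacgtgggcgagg
TUBAL3, chr2:33373763-33373822, plus strand: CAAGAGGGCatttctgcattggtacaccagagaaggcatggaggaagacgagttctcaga
KIF3A, chr11:24019822-24019881, minus strand: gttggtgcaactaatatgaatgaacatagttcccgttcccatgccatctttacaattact
KIF3A, second probe, chr11:23999070-23999721, minus strand: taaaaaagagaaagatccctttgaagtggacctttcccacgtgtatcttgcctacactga
STMN4, chr25:33337850-33337909, plus strand: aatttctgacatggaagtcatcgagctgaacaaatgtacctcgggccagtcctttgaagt
STMN4, second probe, chr25:33338929-33338988, plus strand: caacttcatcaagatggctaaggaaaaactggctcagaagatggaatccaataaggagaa
DCTN1, second probe, chr17:51823797-51823856, plus strand: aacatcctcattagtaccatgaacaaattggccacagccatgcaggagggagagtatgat

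The first comparison asked which of these genes changed when the tumor cells were grown with MDSCs. None did by the thresholds of the study's methods, a p under 0.05, taken here as unadjusted, and a fold over 2. Of the 125 member probes tested, 0 were called higher (1.03% of all probes were) and 0 lower (0.191% of all probes). By limma on the 3 line ratios, 6 member probes were higher and 3 lower at an unadjusted p under 0.05, beside 5.81% and 4.12% of all probes, and 0 passed an adjusted p under 0.05, as none of all probes did (0.0%). The smallest adjusted p among the members was 0.498. The methods' t-test on the same ratios called 0 of 125 members at these thresholds, beside 118 of all 40873 probes, had 1 member at an unadjusted p under 0.05, and left 0 of either after Benjamini-Hochberg adjustment.

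The changes were small. The median log2 ratio over the 72 tested genes was 0.02, beside 0.01 over all 40873 probes tested, and 59 genes lay within 1.2-fold and 69 within 1.5-fold of no change. The standard error of a member gene's mean ratio had a median of 0.14 on the log2 scale. Among the 55 genes well above background in all 12 channels, 48 lay within 1.2-fold, and the ratios ran from -0.26 to 0.73. Over the 94 probes of this kind 6 were higher and 2 lower at an unadjusted p under 0.05, beside 7.07% and 2.68% of all probes well above background throughout.

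**Figure D1:**
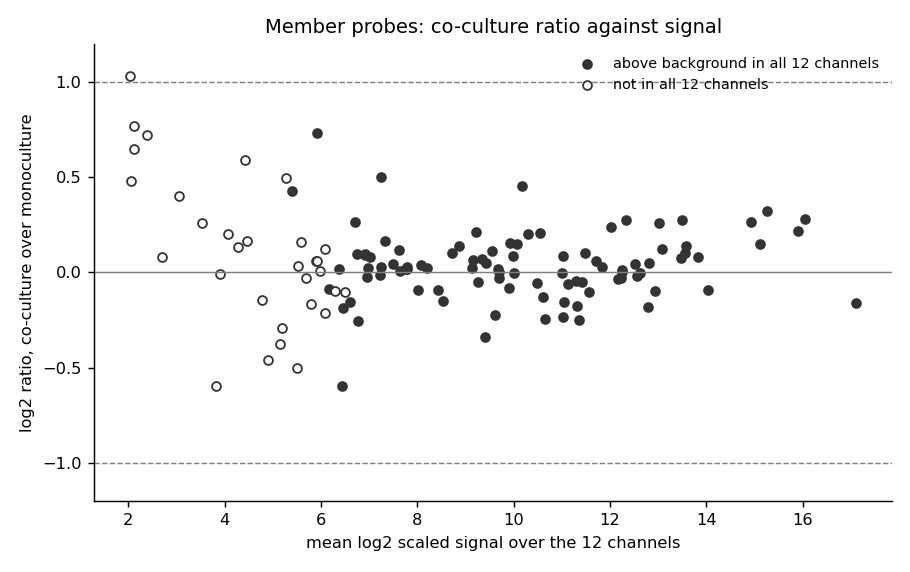
Log2 ratio of co-culture over monoculture (mean of 3 lines) of the 125 tested member probes against their mean log2 scaled signal over the 12 channels. Filled points are the 94 probes well above background in all 12 channels, which lie between -0.60 and 0.73, and open points are the others, which reach 1.03. Dashed lines mark 2-fold.

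Leaving out P114 changed this picture for all probes alike. With CMT-U27 and CMT-U309 alone (n = 2 lines), 21 of 125 member probes passed limma's adjusted p under 0.05, which is 16.8% beside 15.6% of all probes. Of these 14 were higher (8.98% of all probes) and 7 lower (6.58%). With the 2-fold threshold as well as an unadjusted p under 0.05, 6 were higher (5.15% of all probes) and 0 lower (1.4%). These 6 were 2 probes of MAPRE3 and 1 each of TUBAL3, KIF6, STMN2 and STMN4, and the last 4 were well above background in no channel. Leaving out CMT-U27 instead left 0 member probes at an adjusted p under 0.05, as it left 0 of all probes. Leaving out CMT-U309 left 0 member probes, beside 17 of all probes higher and 8 lower.

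By family the medians of the mean log2 ratio lay between -0.08 and 0.21. Beta tubulins had the highest, 0.21 over 6 genes, and the gamma tubulin ring complex the lowest, -0.08 over 7 genes. Among genes well above background in all 12 channels the order differed. There the beta tubulins had 0.15 over 5 genes and the gamma tubulin ring complex -0.01 over 6. The highest was then 0.28 over 2 end-binding proteins and the lowest -0.02 over 9 transport and other kinesins. For the beta tubulins P114 had a median of -0.14, CMT-U27 of 0.20 and CMT-U309 of 0.43, so that the lines did not share a sign. Mitotic kinesins, a fixed list mostly of motors that work in cell division, had a median of 0.01 over 12 genes, and the transport and other kinesins -0.01 over 16. No family held a member called by the thresholds of the methods.

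**Figure D2:**
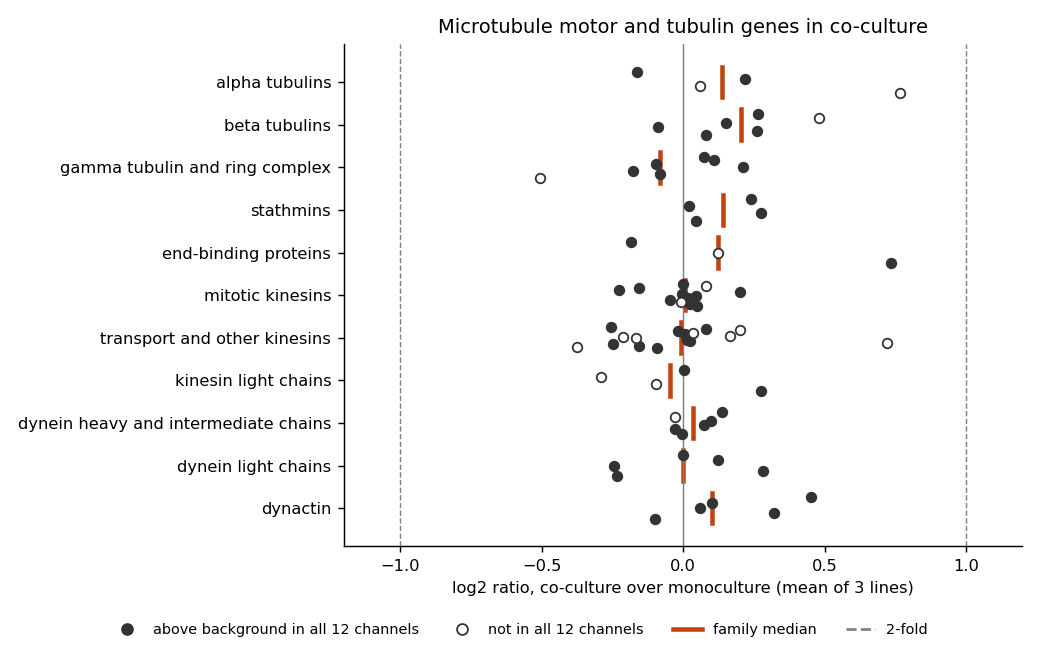
Mean log2 ratio of co-culture over monoculture (3 lines) for the 72 tested genes at their brightest probe, by family. Filled points are genes well above background in all 12 channels, open points the others, the bar is the family median and dashed lines mark 2-fold. Every gene lies inside the 2-fold lines.

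End-binding proteins held the member with the largest ratio among those measured on every channel. MAPRE3, which tracks growing microtubule tips, had log2 ratios of -0.53 and 0.78 on the 2 P114 arrays, 1.70 and 0.75 in CMT-U27, and 0.97 and 0.74 in CMT-U309. The P114 array with co-culture in Cy5 was the 1 of 6 below 0. The mean was 0.73 ± 0.23 (SE, n = 3 lines), with an adjusted p of 0.498 by limma. Without P114 it was 1.04 at an adjusted p of 0.0068, and the other MAPRE3 probes, at 0.89 and 1.08, passed too. MAPRE1, the abundant family member EB1, had a mean ratio of -0.18 at its brightest probe and 0.20 at a dimmer one, and MAPRE2 had 0.12, so the family did not move together. Without P114, 2 MAPRE1 probes passed in opposite directions by limma. The brightest was at -0.36 (adjusted p = 0.035) and a dimmer one at 0.38 (adjusted p = 0.026).

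Dynactin, the complex that links dynein to its cargo, gave the next highest values. DCTN1, its largest subunit (p150Glued), had log2 ratios of -0.03 and -0.02 in P114, 0.84 and 0.71 in CMT-U27, and 0.58 and 0.65 in CMT-U309, so P114 stood apart from the other lines. The mean was 0.45 ± 0.16 (SE, n = 3 lines; adjusted p = 0.498 by limma), and 0.69 without P114 (adjusted p = 0.0015). The probe printed above gave 0.50 and was above 0 on 6 of 6 arrays, while the third DCTN1 probe gave -0.10. In P114 the printed probe was at 0.41 and 0.98 and the third at -0.54 and -0.71, so the probes of this gene disagreed in direction there.

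DCTN5, a subunit of the pointed end of dynactin, was above 0 on 6 of 6 arrays, at 0.19 and 0.18 in P114, 0.62 and 0.22 in CMT-U27, and 0.32 and 0.40 in CMT-U309. Its mean of 0.32 ± 0.12 (SE, n = 3 lines) had an adjusted p of 0.498 by limma. DCTN3, DCTN4 and DCTN6 lay between -0.10 and 0.10, the CMT-U309 value of DCTN4 resting on 1 array because an outlier spot was left out.

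The dynein light chains, which bind cargo and the dynein intermediate chain, split in direction. DYNLT1 had ratios of 0.18 and 0.01 in P114, 0.47 and 0.16 in CMT-U27, and 0.42 and 0.47 in CMT-U309, all 6 above 0, with a mean of 0.28 ± 0.13 (SE, n = 3 lines). Its other probe gave -0.10. DYNLT3 lay below 0 on 5 of 6 arrays, the exception being 0.32 in P114, with a mean of -0.23 ± 0.12 (SE, n = 3 lines). Its second probe, which shares a run of 46 bases with the first, gave -0.34.

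DYNLRB2, a roadblock-type light chain, was at 0.14 and 0.46 in P114 but -0.69 and -0.39 in CMT-U27 and -0.75 and -0.22 in CMT-U309. P114 and the other lines thus did not overlap, and the mean was -0.24 ± 0.16 (SE, n = 3 lines). Without P114, DYNLRB2 was at -0.51 (adjusted p = 0.0056) and DYNLT3 at -0.36 (adjusted p = 0.025) by limma. The other DYNLRB2 probe did not pass an adjusted p under 0.05 in that fit. The heavy chain DYNC1H1, the motor itself, had a mean of 0.14 at its brightest probe and between -0.09 and 0.10 at its 5 others.

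Of the kinesins, KIF7, which works at the tip of the primary cilium in hedgehog signaling, was the only member gene below 0 on all 6 arrays. It had ratios of -0.09 and -0.08 in P114, -0.39 and -0.24 in CMT-U27, and -0.46 and -0.23 in CMT-U309. The mean was -0.25 ± 0.11 (SE, n = 3 lines; adjusted p = 0.498 by limma). Of all probes, 1.72% were below 0 on all 6 arrays and 2.55% above, beside 1 and 4 of the 125 member probes. Among probes well above background throughout these shares were 1.82% and 4.02%, and the same 1 and 4 member probes are of that kind.

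KIF12 had the lowest mean of the genes measured in every channel, -0.26 ± 0.18 (SE, n = 3 lines). Its 6 ratios fell by dye: -0.24, -1.05 and -1.01 with co-culture RNA in Cy5, and 0.57, 0.14 and 0.06 with it in Cy3. KIF18A, which shortens microtubules at the kinetochore, was at -0.23 ± 0.14 (SE, n = 3 lines), with 0.28 in P114 as the 1 value above 0. The light chain KLC4, which ties kinesin-1 to cargo, was at 0.28 ± 0.12 (SE, n = 3 lines), with values from -0.02 to 0.67.

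**Figure D3:**
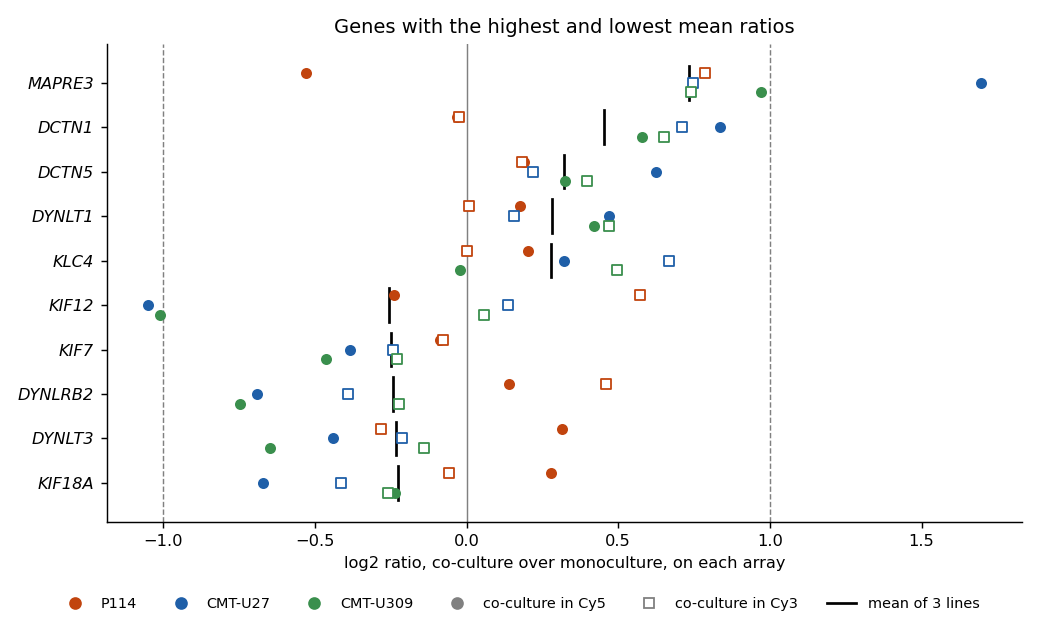
Log2 ratio of co-culture over monoculture on each of the 6 arrays for the 5 genes with the highest and the 5 with the lowest mean ratio among those well above background in all 12 channels. Colours mark the line, filled circles co-culture RNA in Cy5, open squares co-culture RNA in Cy3, black bars the mean of 3 lines and dashed lines 2-fold. DCTN5 and DYNLT1 lie above 0 on all 6 arrays and KIF7 below 0 on all 6, and DCTN1 lies near 0 in P114 and above 0.5 in the other lines.

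Several spindle and cargo motor genes had mean ratios near 0. KIF11 (Eg5), which slides spindle poles apart, had a mean ratio of 0.00 ± 0.12 (SE, n = 3 lines), with -0.16 and -0.36 in CMT-U27 and values of 0.06 to 0.23 in the other lines. KIF23, needed for the last step of cell division, was at 0.05 ± 0.11, with 1 array in CMT-U309. KIF5B, the common kinesin-1 heavy chain, was at 0.01 ± 0.11, and KLC1 at 0.00 ± 0.14, the mean of 0.28 in CMT-U27, 0.03 in CMT-U309 and -0.30 in P114. The gamma tubulin gene TUBG1 was at 0.07 ± 0.11. All 5 probes were well above background in every channel.

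Among the tubulins TUBB had ratios of -0.07 and 0.00 in P114, 0.25 and 0.45 in CMT-U27, and 0.34 and 0.63 in CMT-U309, with a mean of 0.26 ± 0.13 (SE, n = 3 lines). TUBA4A (0.22 ± 0.14) and TUBB3 (0.15 ± 0.13), the beta tubulin of neurons that many tumors also make, were likewise below 0 in the mean of P114 and above 0 in the other lines. TUBA1B was at -0.16 ± 0.13. None passed limma's test over the 3 lines, and without P114 TUBB was at 0.42 (adjusted p = 0.014) and TUBA4A at 0.40 (adjusted p = 0.019).

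STMN1, the stathmin of dividing cells, was above 0 on 6 of 6 arrays, from 0.02 to 0.58, with a mean of 0.24 ± 0.11 (SE, n = 3 lines; adjusted p = 0.501 by limma). STMN3 had a mean of 0.28 ± 0.12 and was above 0 on 5 of 6 arrays. STMN4 is the 1 member in the gene list that the study drew from these arrays, so its direction there is no independent evidence. Its brightest probe, well above background in all channels, gave 0.04 ± 0.19, and its second probe gave 1.03 ± 0.47 but was well above background in 0 of 12 channels, which leaves it without a fold.

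KIF3A, part of the heterotrimeric kinesin-2 that builds cilia, also differed between its probes. The brightest gave 0.01 ± 0.14. The second gave -0.15 and 0.06 in P114, -0.88 and -0.89 in CMT-U27, and -1.03 and -0.71 in CMT-U309, with a mean of -0.60 ± 0.21 (SE, n = 3 lines; adjusted p = 0.498 by limma) and -0.88 without P114 (adjusted p = 0.0078). Both probes were well above background in all 12 channels, and they lie in different stretches of the gene on canFam2.

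The lowest ratio of any tested gene was that of TUBGCP6, a gamma tubulin ring subunit, at -0.50 ± 0.21 (SE, n = 3 lines; adjusted p = 0.498 by limma). It rested largely on 1 array: the CMT-U309 array with co-culture in Cy3 gave -2.22, and the other 5 lay between -0.95 and 0.58. Without that array the mean was -0.04, without the other CMT-U309 array -0.97, and with background correction by normexp and loess 0.01. The minus-end kinesin KIFC2 differed in sign between lines, with CMT-U27 at 0.62, P114 at -1.13 and CMT-U309 at -0.62. Neither KIFC2 nor TUBGCP6 was well above background in all 12 channels. The channels of KIFC2 ran from 3.68 to 5.35 in CMT-U27 and from 3.53 to 5.44 in CMT-U309.

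The second comparison asked how the level of each gene differed between the lines, in 6 RNA samples with 2 per line. Each line was hybridised on a slide of its own, so line and slide cannot be told apart, and the 2 RNA samples of a line share arrays. Levels are log2 of the scaled signal and are compared within a probe only. Here the members did differ, by about as much as the rest of the array: 50 of 125 probes were called in at least 1 of the 3 differences (adjusted p under 0.05 by limma and a fold over 2), which is 40% beside 37.7% of all probes.

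Between P114 and CMT-U27, 13 member probes were higher in P114 (10.8% of all probes) and 14 lower (12.4%). Between P114 and CMT-U309, 9 were higher in P114 (7.19%) and 6 lower (6.51%). Between CMT-U27 and CMT-U309, 21 were higher in CMT-U27 (15.4%) and 8 lower (12.4%). In genes at their brightest probe, 28 of 72 were called in at least 1 difference. With background correction by normexp and Aquantile scaling the 3 counts of probes fell to 8, 10 and 11. Those of all probes fell from 23.2%, 13.7% and 27.8% to 8.84%, 4.89% and 10.4%. This correction added an offset of 50 to each signal, which narrows log2 differences more at dim probes than at bright ones.

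The largest difference was that of DYNC1I1, the dynein intermediate chain best known from neurons. Its level in monoculture and co-culture was 9.14 and 9.22 in CMT-U309, against 4.10 and 4.53 in P114 and 3.86 and 3.28 in CMT-U27. CMT-U309 lay apart from both other lines in every channel, while P114 and CMT-U27 were well above background in 2 of 4 channels each. The difference was -4.87 ± 0.28 (SE) for P114 minus CMT-U309 (adjusted p = 1.4e-06 by limma) and -5.61 ± 0.28 for CMT-U27 minus CMT-U309 (adjusted p = 2.4e-07). Under normexp and Aquantile these were -1.99 and -2.08. DYNC1I2, the intermediate chain of most tissues, did not pass the 2-fold threshold in any difference, at levels of 11.42, 11.73 and 11.31 in P114, CMT-U27 and CMT-U309.

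KLC3, a kinesin light chain, marked CMT-U27. Its level in monoculture and co-culture was 8.58 and 8.74 there, 5.20 and 4.89 in P114, and 5.23 and 5.08 in CMT-U309. All 4 channels of CMT-U27 lay above every channel of the other lines, and P114 was well above background in 2 of 4 channels and CMT-U309 in 3 of 4. The differences were -3.62 ± 0.22 (SE) for P114 minus CMT-U27 and 3.51 ± 0.22 for CMT-U27 minus CMT-U309, with adjusted p of 1.0e-06 and 1.1e-06 by limma, and -1.62 and 1.58 under normexp and Aquantile. KLC1 was called in no difference, and KLC4 was higher in CMT-U309 than in CMT-U27 by 1.15 on the log2 scale, but by 0.47 and not called at its second probe.

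The end-binding genes did not share an order of the lines. MAPRE2 (EB2) stood at 7.51 and 7.23 in P114, 6.07 and 6.21 in CMT-U309, and 4.49 and 4.99 in CMT-U27, with no overlap between any of the lines. P114 exceeded CMT-U27 by 2.63 ± 0.25 (SE; adjusted p = 2.3e-05) and CMT-U309 by 1.23 ± 0.25 (adjusted p = 0.0051), and CMT-U27 lay below CMT-U309 with a difference of -1.40 ± 0.25 (adjusted p = 0.0012), all by limma. Under normexp and Aquantile the first was 1.01 and the last -0.51, which was not called. MAPRE2 was not well above background in all 12 channels, and its CMT-U27 channels ran from 4.10 to 5.09.

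MAPRE3 was lowest in CMT-U27, at 4.25 and 5.47, against 5.96 and 6.09 in P114 and 6.45 and 7.30 in CMT-U309. The difference between CMT-U27 and CMT-U309 was -2.02 ± 0.40 (SE; adjusted p = 0.0026 by limma), -0.67 under normexp and Aquantile, and -0.71 at a second MAPRE3 probe, which was not called. P114 exceeded CMT-U27 by 1.16 ± 0.40 (SE; adjusted p = 0.046 by limma). At the third probe, well above background in 3 of 4 CMT-U309 channels, 1 of 4 in P114 and none in CMT-U27, CMT-U309 was at least 2.11-fold and P114 at least 1.75-fold above CMT-U27, both called. MAPRE1 was called in no difference, with levels of 13.01 in CMT-U309, 12.79 in CMT-U27 and 12.56 in P114.

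P114 stood out in the kinesin-1 gene KIF5C, known from neurons. Its level in monoculture and co-culture was 8.29 and 8.24 in P114, 6.10 and 6.68 in CMT-U27, and 6.52 and 6.07 in CMT-U309, so that P114 lay above every channel of the others. P114 exceeded CMT-U27 by 1.88 ± 0.24 (SE) and CMT-U309 by 1.97 ± 0.24, with adjusted p of 0.00021 and 0.00029 by limma, and the second probe printed above gave 2.19 and 2.29. Under normexp and Aquantile both differences at the first probe were 1.08. KIF5B, the form in most tissues, was called in no difference at any of its 4 probes.

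The beta tubulin TUBB6, a widely made isotype, stood at 14.75 and 14.55 in P114, 13.77 and 13.98 in CMT-U309, and 12.87 and 13.10 in CMT-U27. The lines did not overlap. The difference was 1.67 ± 0.16 (SE; adjusted p = 2.6e-05 by limma) between P114 and CMT-U27, and 1.62 under normexp and Aquantile. TUBB4A was lower in CMT-U27 than in CMT-U309, with a difference of -1.36 ± 0.21 (SE; adjusted p = 0.00053 by limma), and -0.62 under normexp and Aquantile. TUBB and TUBB4B were called in no difference, nor was any alpha tubulin.

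DYNLRB2 was higher in P114, at 11.47 and 11.77, than in CMT-U27, at 10.43 and 9.89, and CMT-U309, at 10.39 and 9.90. P114 exceeded them by 1.47 ± 0.22 (SE) and 1.48 ± 0.22, with adjusted p of 0.00055 and 0.00095 by limma, and its other probe gave 1.68 and 1.44. DYNLT3 was lower in CMT-U309 than in both other lines, by 1.25 ± 0.17 (SE) against P114 and 1.77 ± 0.17 against CMT-U27. All 4 DYNLL2 probes, of which 3 overlap in sequence, had their highest level in CMT-U309.

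DCTN1 was highest in CMT-U27 at each of its 3 probes. At the brightest, levels in monoculture and co-culture were 10.75 and 11.52 in CMT-U27, 10.09 and 10.07 in P114, and 9.03 and 9.64 in CMT-U309. CMT-U27 exceeded CMT-U309 by 1.80 ± 0.26 (SE; adjusted p = 0.00035 by limma), and by 1.73 and 2.10 at the other probes. P114 lay below CMT-U27 with a difference of -1.06 ± 0.26 (adjusted p = 0.0099 by limma). DCTN4 was also higher in CMT-U27 than in CMT-U309, by 1.23, but its dimmer probes gave 1.14 and -0.35.

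In the gamma tubulin ring, TUBGCP4 and TUBGCP6 were called higher in CMT-U27 than in both other lines. TUBGCP4 stood at 12.35 and 11.93 in CMT-U27, 10.85 and 10.87 in P114, and 11.00 and 10.86 in CMT-U309, a difference of -1.28 ± 0.16 (SE; adjusted p = 0.00017 by limma) for P114 minus CMT-U27. TUBGCP6 differed by 1.89 ± 0.32 (SE) between CMT-U27 and CMT-U309, with the array named above among its values, and by 0.50 under normexp and Aquantile. Its CMT-U309 channels ran from 3.01 to 5.45, and not all 12 channels were well above background. Its difference of -1.16 ± 0.32 between P114 and CMT-U27 was not called without the CMT-U27 monoculture RNA (-1.06) or the P114 co-culture RNA (-0.90). TUBG1 itself was higher in CMT-U27 than in CMT-U309 by 1.11, while TUBG2, TUBGCP2, TUBGCP3 and TUBGCP5 were not called at their brightest probes.

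**Figure D4:**
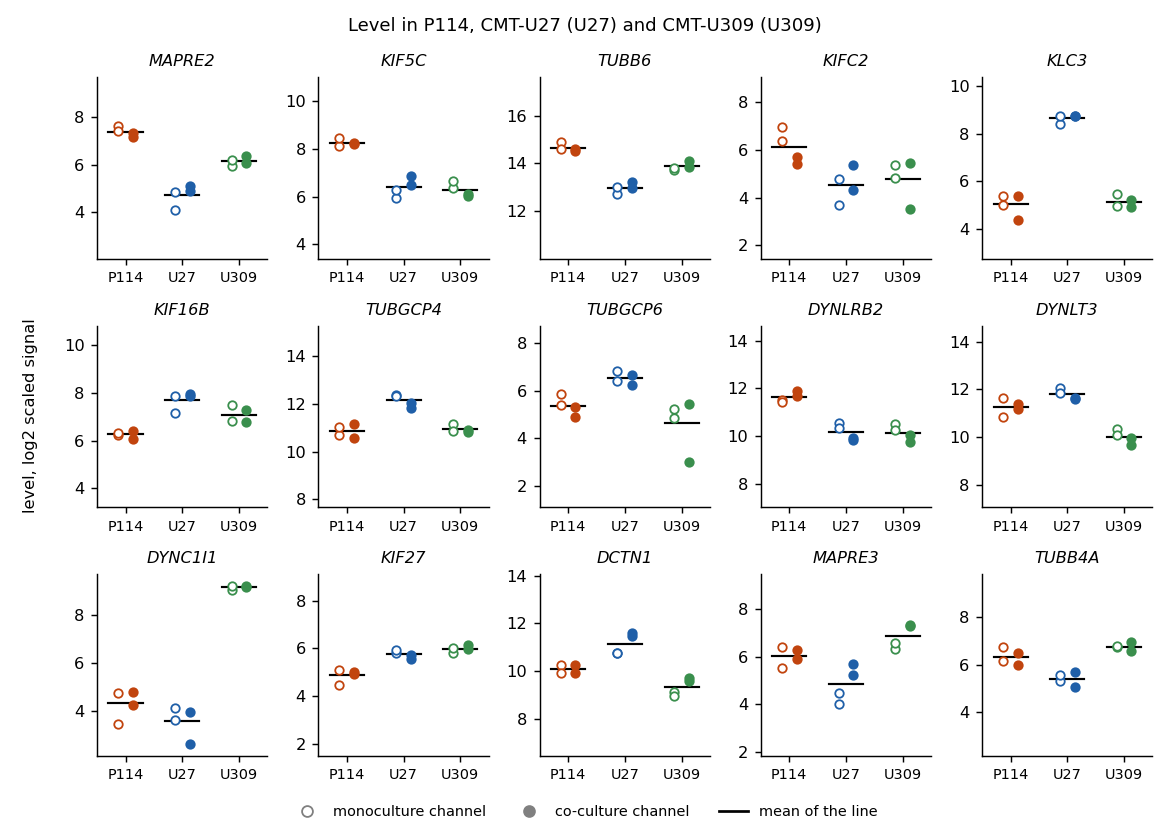
Level, as log2 scaled signal, of 15 genes in P114, CMT-U27 and CMT-U309. They had the largest called differences per direction among genes well above background in every channel of the higher line. Open points are monoculture channels, filled points co-culture channels and bars the mean of the line, and every panel spans the same number of log2 units. DYNC1I1 stands apart in CMT-U309, KLC3 in CMT-U27 and KIF5C in P114.

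KIF16B, a kinesin that carries early endosomes, was lowest in P114, at 6.29 and 6.24, against 7.52 and 7.91 in CMT-U27 and 7.14 and 7.04 in CMT-U309. The difference from CMT-U27 was -1.45 ± 0.20 (SE; adjusted p = 0.00029 by limma) at the brightest probe, and -1.33 and -1.68 at the overlapping probes printed above. It was -0.60 under normexp and Aquantile. KIF27, a relative of KIF7, was lower in P114 than in CMT-U309, with a difference of -1.11 ± 0.24 (SE; adjusted p = 0.0077 by limma), -0.32 under normexp and Aquantile, and -1.02 and not called without the P114 monoculture RNA. KIFC2 was called higher in P114 than in both other lines, by 1.58 ± 0.41 and 1.31 ± 0.41 (SE), but its P114 level was 6.67 in monoculture and 5.54 in co-culture, and without the P114 monoculture RNA the differences were 1.01 and 0.75 and were not called. The first was not called without the CMT-U27 monoculture RNA (1.27), the second without the CMT-U309 co-culture RNA (1.00), and neither under normexp and Aquantile (0.26 and 0.22).

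Most mitotic kinesins had their highest level in CMT-U27. Of 12 genes, 11 had a lower level in P114 than in CMT-U27, with a median difference of -0.74, and 11 had a higher level in CMT-U27 than in CMT-U309, with a median of 0.79. Between P114 and CMT-U309 they shared no direction, with 5 lower and 7 higher in P114 and a median of 0.12. Over all tested probes the 3 medians were 0.15, 0.04 and 0.15. With quantile normalization the counts against CMT-U27 were 11 and 9, and with normexp and Aquantile 11 and 10.

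Called were 5 of them between CMT-U27 and CMT-U309, namely KIF11, KIF14, KIF15, KIF23 and KIF24, all higher in CMT-U27, beside 15.4% of all probes. With quantile normalization 3 were called, and with normexp and Aquantile 1. KIF14 was well above background in 1 of the 4 CMT-U27 channels and in no other, so its call rests on dim signal. KIF15, which backs up KIF11 in the spindle, stood at 11.98 and 11.65 in CMT-U27, 11.11 and 11.06 in P114, and 10.29 and 10.20 in CMT-U309, with no overlap between lines. KIF11 stood at 11.69 and 11.43 in CMT-U27, 10.92 and 11.00 in P114, and 10.40 and 10.57 in CMT-U309. Between P114 and CMT-U27 KIF24 was lower in P114 and KIF2B, which is dim, higher. KIF2B was the exception in both orders.

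Of 11 proliferation genes tested, 4 were lower in P114 than in CMT-U27 and 0 higher (12.4% and 10.8% of all probes), with a median difference of -0.80. Between CMT-U27 and CMT-U309, 5 were higher in CMT-U27 and 0 lower (15.4% and 12.4% of all probes), with a median of 0.97. The others were not called, among them PCNA at 0.67 for P114 minus CMT-U27 and RRM2 at 0.00 and -0.09. The part of the growth state of the cultures in the kinesin levels was not tested.

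**Figure D5:**
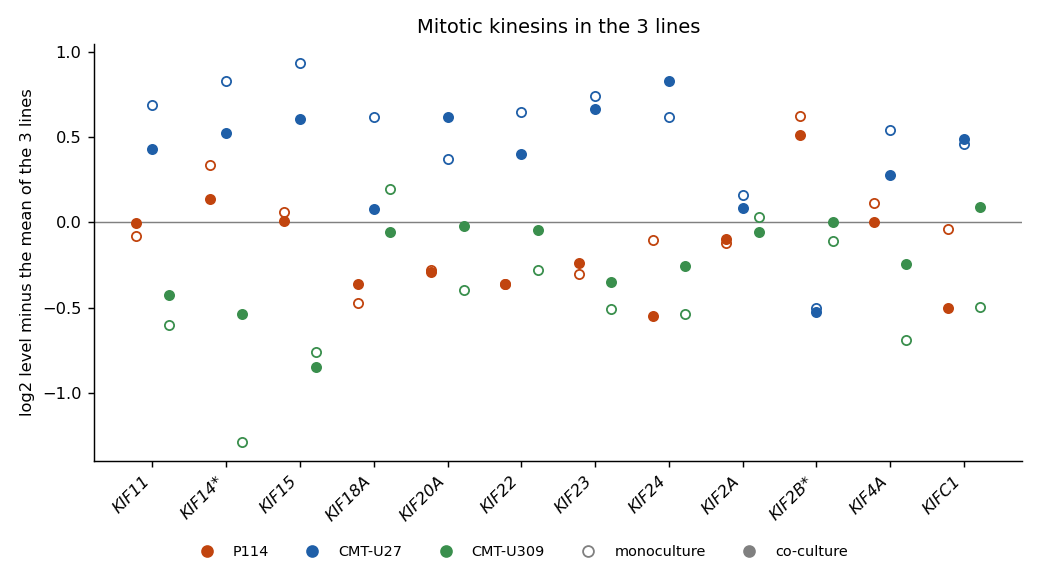
Log2 level of the 12 mitotic kinesins in each RNA sample minus the mean of the 3 lines, with monoculture open and co-culture filled. An asterisk marks the genes not well above background in all 12 channels. CMT-U27 lies above 0 for 11 genes, the exception being KIF2B.

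Genes that handle microtubules but bear other names were counted alongside, from a list of 79 symbols of which 61 were on the array and tested. In co-culture 2 of 61 were called higher, MAP6 and EML5, beside 1.03% of all probes, and 0 lower, beside 0.191%. Both are in the study's own list from these arrays, which is no independent evidence, and they were well above background in 0 and 3 of 12 channels. At an unadjusted p under 0.05 by limma 6 were higher and 0 lower, beside 5.81% and 4.12% of all probes, and 0 passed an adjusted p under 0.05. Their median log2 ratio was 0.04. PLK1, the mitotic kinase, was the highest of those well above background in every channel, at 0.52, and the actin-capping dynactin subunit CAPZB was at 0.36.

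Between the lines, 6 of these 61 genes were higher in P114 than in CMT-U27 and 9 lower, beside 10.8% and 12.4% of all probes. Against CMT-U309, 3 were higher in P114 and 3 lower (7.19% and 6.51% of all probes), and 14 were higher in CMT-U27 and 5 lower (15.4% and 12.4%). The neuronal microtubule protein tau (MAPT) had a level of 10.85 in CMT-U27, 7.61 in P114 and 7.37 in CMT-U309, and MAP1B had 12.47 in CMT-U309, 10.62 in P114 and 8.43 in CMT-U27. The dynein adaptor HOOK2 stood at 11.85 in CMT-U27, 10.42 in P114 and 8.84 in CMT-U309, and was called in all 3 differences, as was MAP1B. VASH2, whose product trims the last residue of alpha tubulin, stood at 13.41 in P114 and at 10.97 and 11.34 in CMT-U27 and CMT-U309.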

How the data were processed

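RNA of 6 samples, co-culture and monoculture of 3 lines, was hybridised to 6 2-colour Agilent arrays. The deposited scanner files hold processed intensity values, which the authors' software (Agilent Feature Extraction, version 10.7.3.1 per the labels and 10.10.1.1 per the file headers) had background-subtracted and dye-normalized. A second deposited table gives log10 ratios by the authors, which equal the scanner's ratio turned to co-culture over monoculture in each array, with a median of 0, and which served as an alternative. Probe names and canFam2 coordinates are those of the array design.

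Here control spots and outlier-flagged spots were left out, channels were brought to the same median, probes whose largest scaled intensity was 10 or less were removed, and log2 was taken with no pseudocount. The dye-swap arrays of a line were averaged. limma 3.58.1 (R 4.3.3, eBayes with a trend) tested the mean of 3 line ratios against 0, and the pairwise differences between lines over 6 RNA samples, with Benjamini-Hochberg adjustment over 40873 probes. An exact sign-flip test over 3 lines cannot give a two-sided p under 0.25. Python 3.11.15 was used for summaries. Fits were tested on simulated data. The number of arrays limits the precision.

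Genes were named by rule at their brightest probe: those called in co-culture, the 5 highest and 5 lowest ratios among genes well above background in all 12 channels, a core of common tubulin, kinesin, dynein, dynactin, stathmin and end-binding genes with STMN4, and the 4 largest called differences per direction between lines. These differences between lines were ranked only among genes well above background in every channel of the higher line. Of the core, DYNLL1 is not among the members measured here. Other genes were named after their values were seen. The members, lists and rules were chosen with earlier results of these data known. Alternatives covered background correction (normexp with an offset of 50), scaling, filters, the deposited ratios, the methods' t-test, the replicate block and leaving out each line, array or RNA.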

Additional observations from a re-analysis of the deposited data

Results flagged for a closer look

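The following genes are given at their brightest probe. In each, every array of 1 line had a ratio above 0 and every array of another line a ratio below 0, with 2 arrays per line. The differences between lines were not tested, and the dye-swap arrays of a line share their RNA. Differences are in log2 ratio of co-culture over monoculture.

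Most set P114 against another line. Some of the P114 ratios were near 0, at -0.07 and -0.002 in TUBB, -0.03 and -0.02 in DCTN1, and -0.39 and -0.01 in TUBB6. The 2 arrays of P114 differed by a median of 0.36 over the member genes. DCTN1 was higher by 0.80 in CMT-U27 and by 0.64 in CMT-U309 than in P114, and TUBB by 0.39 and 0.52. DYNLRB2 went the other way, with -0.84 for CMT-U27 minus P114 and -0.78 for CMT-U309 minus P114. For CMT-U27 minus P114 the difference was also 1.75 in KIFC2, 0.78 in MAPRE2, 0.58 in KLC1, -0.34 in KIF11 and -0.71 in MAPRE1. For CMT-U309 minus P114 it was 0.40 in TUBB6 and -0.84 in DYNC1H1. Such opposition did not hold at every probe. No other probe of DYNC1H1 or KLC1 showed it. The second DCTN1 probe had a higher ratio for P114 (0.70) than for CMT-U27 (0.55) or CMT-U309 (0.25). The third kept P114 lowest, at -0.62. A dimmer MAPRE1 probe was reversed, with -0.14 for P114 and 0.29 for CMT-U27, and another had P114 arrays of opposite sign. The other DYNLRB2 probe kept the order against CMT-U27, but its CMT-U309 arrays differed in sign.

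The lines CMT-U27 and CMT-U309 opposed each other in KIF5C (CMT-U27 higher by 1.02), KIF16B (0.48), KLC3 (0.31) and KIF11 (-0.43). The KIF5C ratios were 0.56 and 0.59 in CMT-U27 and -0.36 and -0.53 in CMT-U309. At the other probes of KIF5C and KIF16B the CMT-U309 arrays differed in sign.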

How the results depend on the processing

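For the named genes, 0 of 264 recomputed level differences changed sign under the alternatives run. The other called level differences were not checked for sign. Log2 ratios, none of them called over the 3 lines, changed sign in 73 of 711 recomputations. Among them were KIF23 (-0.17 with normexp and loess), TUBGCP6 (0.01), TUBGCP4 (0.10 at the median over its probes), KIF3A (-0.30) and TUBB4A (0.10 and 0.06 without 1 array each). Median log2 ratios over groups of members changed sign in 41 of 252 recomputations. The count of member probes called higher in co-culture, 0 as reported, was 1 with the deposited log10 ratios, with no intensity filter and with eBayes without a trend, each time the second STMN4 probe, which is well above background in no channel. Leaving out a line or an array gave 0 to 6 higher, the 6 without P114, and 0 to 1 lower, the 1 being a KLC2 probe (-1.10) well above background in 3 of 12 channels without CMT-U309. Between lines, background correction by normexp with loess and Aquantile gave 8 member probes for P114 against CMT-U27 and 11 for CMT-U27 against CMT-U309, in place of 27 and 29. Leaving out an RNA gave 21 to 28, 12 to 20 and 25 to 31 for the 3 differences. For named genes, 247 recomputed level differences kept their call and 17 lost it, and 700 recomputed log2 ratios stayed within the spread between lines while 11 moved further. The cause was not tested.

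The labels' replicate number marks the dye of the co-culture RNA (1 for Cy5, 2 for Cy3). Arrays of the same number thus share the dye orientation, and the labels name no other link between them. In 6 of 6 arrays the ratios correlated best with an array of the same number, and so of the same dye orientation, over all probes. Correlations between arrays of the same number ran from -0.22 to 0.61, beside -0.39 to 0.26 in the dye-swap pairs. The part of the dye in this was not tested. With the replicate block over 6 arrays 1 member probe was called higher, again STMN4, and without it 0. Below the background of these arrays no change can be measured, which touches 32 of 126 member probes in at least 1 channel.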
